A study of Mus musculus with 4 samples.

Results

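Skin neutrophils of mice were chosen from single-cell RNA counts by a fixed rule and described here by library. Of 28607 cells kept, 997 met the rule: 326 of 6682 in the Cd226-/- library of carcinogen-treated skin, 205 of 7212 in the WT library of treated skin, 465 of 3513 in the naive CD45+ library and 1 of 11200 in the naive CD45- library. A kept cell had at least 500 genes, at least 1000 UMIs (unique molecular identifiers, each marking 1 captured RNA molecule) and at most 10% mitochondrial UMIs. A member had at least 20 UMIs of S100a8 and S100a9 together, at least 3 of Csf3r, Cxcr2 and Trem1, at most 2 of the complement C1q genes, 0 of the Cd3 genes, and under 1% of its UMIs in Col1a1, Col1a2, Col3a1 and Dcn. These genes chose the cells, so their values describe the set and support nothing.

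Every mouse was on the BALB/c background. In the treated libraries, back skin of Cd226-/- mice (which lack the receptor CD226, also called DNAM-1) or of WT mice received 25 µg of the mutagen DMBA once and, from 1 week later, 5 µg of the tumour promoter TPA weekly for 3 weeks. Cells were taken 3 weeks after treatment. Cells of 3 mice were pooled, separated by CD45, and the CD45+ and CD45- parts combined in equal numbers. The naive CD45+ and naive CD45- libraries each pooled WT and Cd226-/- cells of untreated mice, so the naive neutrophils carry both genotypes and cannot be split by them. Skin was digested with collagenase at 37 °C for 1 h. Each group was 1 library: there is no replicate error, no test was possible, and each interval below is a 95% interval for counting error within these libraries alone. Read as comparisons of libraries, Cd226-/- over WT asks how loss of CD226 and treated over naive how the DMBA/TPA regimen go with neutrophil RNA.

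Neutrophils are short-lived granulocytes that leave the bone marrow with most of their granule proteins already made. Bone marrow exit, ageing and entry into inflamed skin go with a loss of granule and maturation transcripts and a gain of chemokine, cytokine and stress transcripts. Type I interferon induces a separate set of antiviral genes in them, and low oxygen induces genes of glucose uptake and lipid storage.

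By monocyte RNA, most cells that met the rule fell into a pair of kinds. Median UMIs of S100a8 and S100a9 per member were 278.5 in Cd226-/- treated, 304 in WT treated and 318 in naive skin, against 0 in fibroblasts and at most 1 in monocytes of the same libraries. Most members had at most 2 UMIs over 5 monocyte genes (Ccr2, Csf1r, Ms4a6c, F13a1 and Fn1), and a second kind had many: 20 or more in 106 Cd226-/- treated, 57 WT treated and 49 naive cells. Few lay between: 3, 1 and 2 cells had 5 to 9 such UMIs and 8, 11 and 6 had 10 to 19. The 722 cells with at most 4 such UMIs and under 5% ribosomal protein UMIs are called core neutrophils here: 197 Cd226-/- treated, 123 WT treated, 401 naive CD45+ cells and the 1 naive CD45- cell. The split was made after seeing the data. The other 275 cells, called mixed, were 39.6% (34.2 to 45.1) of members in Cd226-/- treated skin, 40% (33.2 to 47.1) in WT treated skin and 13.8% (10.8 to 17.2) in naive skin.

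Most mixed cells carried both neutrophil and monocyte RNA, and the median mixed cell had much more RNA in all. The exceptions were 12 Cd226-/- treated, 13 WT treated and 7 naive mixed cells. These had at most 4 UMIs of the monocyte genes and were set apart by ribosomal share alone. Their median total was 10473 UMIs in Cd226-/- treated, 9151.5 in WT treated and 13050 in naive skin, against 2881, 2987 and 2840 UMIs in core neutrophils. Ribosomal protein genes took 13.5%, 13.6% and 14.3% of the UMIs of the median mixed cell and 0.946%, 1.08% and 1.65% of those of the median core neutrophil, in the order Cd226-/- treated, WT treated and naive. Ly6c2, the antigen of inflammatory monocytes, had a UMI in 74.4%, 78.0% and 84.4% of mixed cells and in 7.11%, 3.25% and 18.7% of core neutrophils in the same order. Cxcr2, the receptor for neutrophil-attracting chemokines, had a UMI in 77.7%, 86.2% and 69.3% of core neutrophils and in 48.1%, 65.9% and 50% of mixed cells. The split itself used ribosomal share and the monocyte genes, so the gaps in these were fixed in advance. Cxcr2 was part of the member rule. A doublet caller marked 2 Cd226-/- treated, 3 WT treated and 0 naive mixed cells and no core neutrophil of these libraries, though in the naive CD45+ library it marked too few cells to count as working. Whether mixed cells are doublets, cells with captured RNA of others or a cell state of their own was not tested. Because mixed cells gave 67.4%, 66.4% and 42.0% of all members' UMIs in the 3 libraries, gene values below are those of core neutrophils, with all members beside them where stated.

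**Figure D1:**
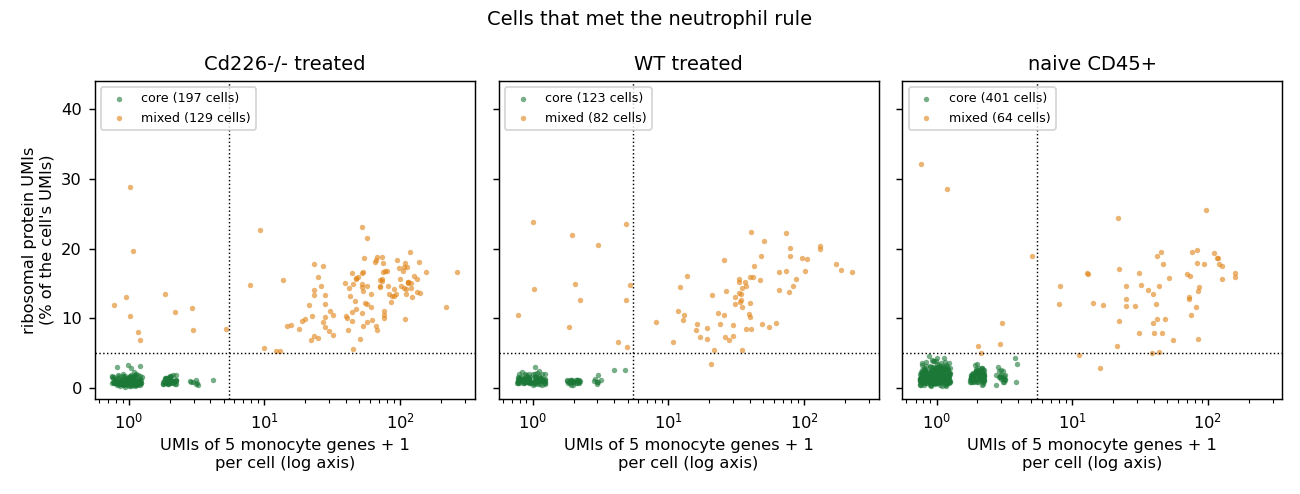
Each point is 1 cell that met the neutrophil rule, by its UMIs of the 5 monocyte genes plus 1 (log axis, points jittered) and the percentage of its UMIs in ribosomal protein genes, in 3 panels for Cd226-/- treated, WT treated and naive CD45+ skin. Dotted lines mark the limits of at most 4 monocyte UMIs and 5% ribosomal UMIs; the green core cells number 197, 123 and 401, and the orange mixed cells 129, 82 and 64, most of them far from both lines.

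Few cells lay near the limit for S100a8 and S100a9, and more lay near that for the receptor sum. With the other conditions met, 8 Cd226-/- treated, 6 WT treated and 7 naive cells had 20 to 24 UMIs of S100a8 and S100a9, and 5, 0 and 9 cells just outside had 15 to 19. For the receptor sum, 29, 15 and 24 cells had exactly 3 UMIs, while 38, 23 and 13 cells had 2 and were left out. Among kept cells with a UMI of Ptprc, the gene of CD45, members were 9.21% in Cd226-/- treated, 9.73% in WT treated and 14.0% in naive CD45+ skin, and core neutrophils 5.11% (4.36 to 5.95), 5.40% (4.42 to 6.52) and 11.9% (10.8 to 13.1). The sort and mixing set the share of CD45+ cells in each library, so these are shares of cells recovered and not of skin.

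The targeted gene was nearly absent from neutrophils in every library. Cd226 had 2 UMIs in the 326 Cd226-/- treated, 1 in the 205 WT treated and 1 in the 465 naive members, each below the 3 UMIs taken here as the floor of detection. T cells, which do use the gene, had 15.2 CPM (11.1 to 20.4) in Cd226-/- treated skin against 49.8 CPM (40.6 to 60.5) in WT treated skin. Here CPM is a gene's UMIs in 1000000 gene UMIs, summed over the cells named. The labels do not say which part of the gene is deleted, so these counts by themselves do not check the genotype. The DNAM-1 antibody tag had a median of 3 counts in Cd226-/- treated, 23 in WT treated and 14 in naive core neutrophils, beside 2, 16 and 10 in fibroblasts of the same libraries. T cells had 2, 45 and 11, so the tag was lower in the Cd226-/- library in each of these cell types, fibroblasts included. The CD45 tag, a protein readout that the rule did not use, had medians of 828, 1163 and 891 in core neutrophils and of 7, 6 and 13 in fibroblasts.

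Core neutrophils gave 716328 UMIs in Cd226-/- treated, 450256 in WT treated and 1231836 in naive skin, with median gene numbers of 661, 692 and 780 per cell. Markers of eosinophils, mast cells and basophils, T cells, dendritic cells, keratinocytes, endothelium and red cells were at or near 0. None of these 7 lists exceeded 28.9 CPM in sum in any of the 3 libraries. Epx, Prg2, Mcpt8 and Ms4a2 had no UMI in core neutrophils of these libraries. The rule itself set the Cd3 genes to 0 and limited the C1q, collagen and Dcn genes, so low values of these were fixed in advance. The 9 fibroblast markers summed to 610.1 CPM in Cd226-/- treated, 1059 CPM in WT treated and 94.2 CPM in naive core neutrophils. The 10 macrophage markers summed to 152.2, 202.1 and 798.0 CPM and the 7 monocyte markers to 305.7, 330.9 and 956.3 CPM. RNA of other cells thus differed between the libraries, and its part in the gene differences below was not tested. Pairs of libraries shared 9 to 21 barcodes.

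Promoters of the genes that the results turn on are shown first, because many of the genes that differ are known targets of interferon and of NF-κB. Each is the 250 bases before the RefSeq start on GRCm38.p6, read 5′ to 3′ on the gene's strand. Capitals mark GAAANNGAA, part of the interferon-stimulated response element, or GGANTTTCC, part of an NF-κB motif, either as written or as its reverse complement.
Rsad2, chr12:26456453-26456702 (- strand): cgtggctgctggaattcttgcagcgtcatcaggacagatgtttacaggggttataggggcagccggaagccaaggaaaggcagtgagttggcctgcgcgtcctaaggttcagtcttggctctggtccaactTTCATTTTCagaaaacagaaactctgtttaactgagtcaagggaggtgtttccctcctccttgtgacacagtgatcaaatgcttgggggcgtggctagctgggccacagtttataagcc
Ifit1, chr19:34640639-34640888 (+ strand): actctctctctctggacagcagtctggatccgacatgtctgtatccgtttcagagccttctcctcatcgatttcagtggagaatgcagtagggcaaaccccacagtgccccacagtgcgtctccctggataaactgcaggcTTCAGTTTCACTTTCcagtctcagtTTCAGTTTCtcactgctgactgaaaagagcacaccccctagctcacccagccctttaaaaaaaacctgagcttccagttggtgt
Isg15, chr4:156200819-156201068 (- strand): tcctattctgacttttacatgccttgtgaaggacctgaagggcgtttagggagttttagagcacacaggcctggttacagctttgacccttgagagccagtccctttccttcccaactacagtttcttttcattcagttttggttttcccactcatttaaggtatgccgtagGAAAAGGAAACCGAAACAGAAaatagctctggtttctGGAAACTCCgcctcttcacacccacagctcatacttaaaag
Cxcl3, chr5:90785851-90786100 (+ strand): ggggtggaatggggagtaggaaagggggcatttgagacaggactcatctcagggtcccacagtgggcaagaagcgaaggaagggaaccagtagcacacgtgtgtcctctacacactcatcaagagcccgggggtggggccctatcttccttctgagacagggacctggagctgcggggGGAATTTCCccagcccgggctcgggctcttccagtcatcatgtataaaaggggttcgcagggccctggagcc
The element had 1 match for Rsad2, beginning 119 bases before the start, 3 for Ifit1 at 109, 103 and 84 bases, of which the first pair overlap, and 3 overlapping matches for Isg15 at 78, 72 and 66 bases. Isg15 and Cxcl3 each had 1 match of the NF-κB motif. In windows of the same length, the interferon element was present in 11 of the 23 listed type I interferon genes that have an entry (47.8%) and in 1934 of 27025 genes in all (7.16%). The NF-κB motif was present in 4 of 10 listed chemokine genes (40%), Cxcl1, Cxcl2, Cxcl3 and Cxcl10, and in 283 of 27025 genes (1.05%). It was also present in 4 of 15 listed NF-κB and feedback genes (26.7%). The interferon element was present in 3 of the same 10 chemokine genes (30%), so the motifs were not particular to 1 list each. A match describes these letters and does not show that a factor binds there.

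Treated neutrophils carried more chemokine RNA and less interferon-induced RNA than naive ones, in both treated libraries. Over all members, 1328 of 6894 genes were higher (19.3%) and 794 lower (11.5%) in Cd226-/- treated over naive, past 1.5-fold with an interval that excludes 1, among genes with at least 30 UMIs over the pair. For WT treated over naive, 960 of 6320 were higher (15.2%) and 834 lower (13.2%). In core neutrophils, 222 of 3232 were higher (6.87%) and 1083 lower (33.5%) for Cd226-/- treated over naive, and 204 of 3074 were higher (6.64%) and 1023 lower (33.3%) for WT treated over naive. The core median over all genes tested was -0.45 and -0.45 on the log2 scale, so a list is read against that value. Scaling by trimmed means (TMM) in place of total UMIs adds 0.32 and 0.21 to each log2 ratio and gives 402 higher and 623 lower for Cd226-/- treated and 303 higher and 743 lower for WT treated. Both comparisons use the same naive library, so their likeness is not independent evidence.

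Chemokines took a large part of the RNA of treated neutrophils. The 16 listed CXC and CC chemokine genes took 14.9% of core neutrophil UMIs in Cd226-/- treated, 15.8% in WT treated and 6.05% in naive skin. Of 8 above the filter, 5 were higher and 2 lower in each treated library, with medians of 1.10 in Cd226-/- treated and 0.98 in WT treated over naive (log2). Cxcl2, a ligand of Cxcr2, stood at 96911 CPM in Cd226-/- treated, 99239 in WT treated and 39174 in naive core neutrophils. Cxcl3, another Cxcr2 ligand whose promoter is printed above, stood at 6800.0 CPM in Cd226-/- treated, 8169 in WT treated and 743 in naive core neutrophils, a ratio of 9.15 (8.53 to 9.84) for Cd226-/- treated over naive and 11 (10.2 to 11.8) for WT treated over naive. Ccl3, a ligand of Ccr1, had 19936, 23176 and 6455 CPM in the same order, and Ccl4 had 24888, 26922 and 12169 CPM. These 4 genes and Cxcl1 were the 5 higher ones. The lower ones were Cxcl10, a Cxcr3 ligand induced by interferon, and Ccl8, with 30.7, 44.4 and 289 CPM.

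The Cxcr2 ligands were at higher levels in neutrophils than in monocytes of the same libraries. Cxcl2 had 96911 CPM in Cd226-/- treated core neutrophils and 9113 CPM in monocytes of that library. In WT treated skin the values were 99239 and 6176 CPM, and in naive skin 39174 and 3944 CPM. Cxcl3 in monocytes was at 219, 146 and 77.2 CPM in Cd226-/- treated, WT treated and naive skin. With every cell thinned to 1000 UMIs, Cxcl3 had a UMI in 64.8% (57.7 to 71.5) of Cd226-/- treated, 78.9% (70.6 to 85.7) of WT treated and 18.0% (14.3 to 22.1) of naive core neutrophils. The unthinned shares were 71.6%, 82.1% and 24.4%. Fibroblasts of the same libraries were at 0.465%, 0.171% and 0% after thinning, the last over 71 cells, which allows up to 5.06%. Whether such UMIs in fibroblasts are free RNA or their own was not tested, here and below.

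Among cytokines and growth factors, 7 of 14 genes above the filter were higher in each treated library and 2 and 3 lower. Osm, encoding oncostatin M of the interleukin-6 family, had 2680.3 CPM in Cd226-/- treated, 3165 in WT treated and 639.7 in naive core neutrophils, ratios of 4.19 (3.85 to 4.56) and 4.95 (4.53 to 5.40) over naive. Hbegf, a ligand of the epidermal growth factor receptor, had 272, 346 and 16.2 CPM from 195, 156 and 20 UMIs. Its ratios of 16.8 (10.6 to 28.1) and 21.3 (13.4 to 35.9) were the highest by the rule for named genes, and 9 of the 20 naive UMIs came from 1 cell. Spp1, osteopontin, had 3116, 3460.2 and 1019 CPM, and Il1a had 1166, 1575 and 506 CPM. Il1b, the main secreted interleukin-1, was abundant in each library at 28219, 32637 and 24108 CPM, and its ratios of 1.17 and 1.35 stayed under 1.5. Il23a, the p19 subunit of interleukin-23, had 137, 88.8 and 28.4 CPM, with 39 of 98 Cd226-/- treated UMIs in 1 cell.

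Interferon-induced genes were lower in treated than in naive neutrophils. Of 27 listed type I interferon genes with a row, 25 passed the filter, and 0 were higher and 25 lower in each treated library, with medians of -2.46 for Cd226-/- treated and -2.36 for WT treated over naive (log2). The 27 genes together had 5016 CPM in Cd226-/- treated, 5979 CPM in WT treated and 20780.4 CPM in naive core neutrophils. Rsad2, which encodes the antiviral enzyme viperin, had 371 CPM in Cd226-/- treated, 713 in WT treated and 4731 in naive core neutrophils, from 266, 321 and 5828 UMIs. Its ratio to naive was 0.0785 (0.0692 to 0.0888) in Cd226-/- treated and 0.151 (0.134 to 0.169) in WT treated cells. Ifit1, which binds viral RNA, had 58.6, 102 and 1291 CPM, and Isg15, a ubiquitin-like modifier, had 2067, 2469.7 and 4788 CPM. Isg15 was thus the least unequal of the 3 whose promoters are printed, with ratios of 0.432 and 0.516.

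Several of these genes were close to 0 in treated skin. Ifit2, Ifit3 and Ifit3b had 4, 4 and 4 UMIs in Cd226-/- treated, 5, 3 and 8 in WT treated and 402, 455 and 542 in naive core neutrophils. Ifit3 and Ifit3b are near-identical copies, and the split of reads between them is uncertain. Cxcl10 had 39.1, 4.44 and 1261 CPM, the WT value from 2 UMIs and the Cd226-/- value from 28, of which 13 lay in 1 cell. Usp18, which removes Isg15 from proteins, had 15.4, 11.1 and 183 CPM, and Cmpk2, a mitochondrial nucleotide kinase, 4.19, 17.8 and 244 CPM. Ly6e had 50.3, 62.2 and 977 CPM, Ifi27l2a 230.3, 304 and 1999 CPM, and Slfn4, a Schlafen gene, 1256, 1099 and 2807 CPM. The lectin-like Clec2d and the Schlafen gene Slfn8 were also among the 12 lowest, with ratios of 0.125 and 0.131 for Clec2d and of 0.116 and 0.092 for Slfn8.

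Most interferon-gamma and MHC class I genes were lower in treated neutrophils as well. Of 21 interferon-gamma genes above the filter, 2 were higher and 14 lower in Cd226-/- treated and 1 higher and 13 lower in WT treated over naive, with medians of -1.28 and -1.10. Gbp2 and Gbp5, guanylate-binding proteins, had 67.0, 99.9 and 425 CPM and 11.2, 26.7 and 180.2 CPM, and Upp1, uridine phosphorylase, was on the other side at 353, 409 and 231 CPM. Of 12 MHC class I genes, 10 and 9 were lower and 0 and 1 higher. B2m, the light chain of class I molecules, had 1203, 1435 and 2480.0 CPM, and Psmb8, an immunoproteasome subunit, 58.6, 55.5 and 242 CPM. The higher gene, in WT treated cells, was Calr, the chaperone calreticulin, at 97.7, 138 and 65.8 CPM. H2-D1 and H2-K1 share much sequence, and the split of reads between such class I genes is uncertain. Of 4 MHC class II genes, which other cells express far more, 4 were lower in Cd226-/- treated and 3 in WT treated over naive. Macrophage markers moved with all these lists: of 8 above the filter, 8 were lower in Cd226-/- treated and 7 in WT treated over naive, with medians of -2.20 and -2.41, and their part in the lower levels was not tested.

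**Figure D2:**
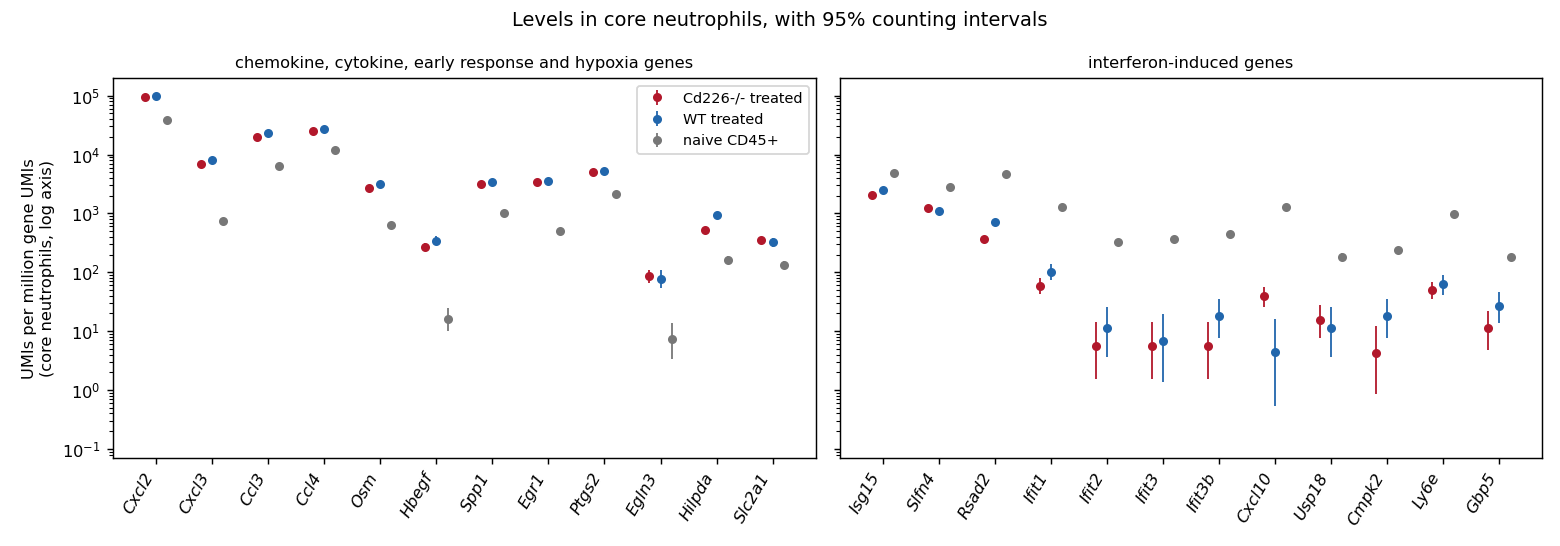
Level in core neutrophils of 12 chemokine, cytokine, early response and hypoxia genes (left) and 12 interferon-induced genes (right), in CPM on a log axis, with 95% counting intervals. Red points are Cd226-/- treated, blue WT treated and grey naive CD45+ libraries. Both treated points lie above the naive point for every gene on the left and below it for every gene on the right. The genes drawn are a selection, so this does not describe their lists. Listed genes not drawn went the other way, such as Hif1a, Fosb and Ccl8 for the left and Upp1 for the right.

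Rsad2, Ifit1 and Isg15 were at higher levels in core neutrophils than in monocytes of the same library. Rsad2 had 371 CPM in Cd226-/- treated core neutrophils and 20.8 CPM in monocytes, 713 and 18.0 CPM in WT treated skin, and 4731 and 366 CPM in naive skin. Isg15 in monocytes was at 83.3, 179 and 573 CPM and Ifit1 at 8.75, 5.39 and 97.8 CPM, so monocytes of the treated libraries were also below those of the naive library for these genes. Thinned to 1000 UMIs, Rsad2 had a UMI in 14.4% (9.85 to 20.1) of Cd226-/- treated, 20.9% (14.1 to 29.1) of WT treated and 51.2% (46.2 to 56.2) of naive core neutrophils, against unthinned shares of 21.8%, 34.1% and 60.1% and thinned fibroblast shares of 0.294%, 0.138% and 1.18%. For Ifit1 the thinned shares were 4.87%, 6.66% and 34.9% in core neutrophils and 2.49%, 1.90% and 3.97% in fibroblasts. The treated neutrophil shares thus stood only a few points above those of fibroblasts.

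Early response genes were split in core neutrophils, with more of them higher than lower in treated skin. Of 21 genes, 7 were higher and 3 lower in Cd226-/- treated and 13 higher and 2 lower in WT treated over naive, with medians of 0.44 and 0.70. Over all members fewer passed the limit: 3 of 21 genes higher and 1 lower (median 0.03) for Cd226-/- treated and 5 of 21 genes higher and 2 lower (median 0.21) for WT treated over naive, beside 19.3% and 15.2% of all genes higher and all-gene medians of 0.21 and 0.08. Egr1, an immediate early transcription factor, had 3422 CPM in Cd226-/- treated, 3525 in WT treated and 504 in naive core neutrophils. Dusp1, a phosphatase of MAP kinases, had 7619, 8815 and 3643 CPM, and Junb 6339, 7338 and 3694 CPM. Fosb was lower in WT treated cells, at 162, 82.2 and 225 CPM. Tissue digestion is known to induce such genes too, and its part was not tested. Fibroblast markers were higher as well, and fibroblasts also express early response genes: 5 of 5 above the filter in each treated library, with medians of 2.93 and 3.68. Other named genes that were higher in both treated libraries were Cdkn1a, the cell cycle inhibitor p21, with 2215, 2596 and 549 CPM, G0s2, an inhibitor of triglyceride lipase, with 16021, 17681 and 4974 CPM, F3, tissue factor, with 343, 273 and 42.2 CPM, and Tgm1 and Cystm1, each below 61 CPM.

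Hypoxia genes split, with more of them higher than lower in treated skin. Of 18 hypoxia genes, 7 were higher in each treated library, and 3 and 4 lower. Egln3, an oxygen-sensing prolyl hydroxylase, had 86.6, 77.7 and 7.31 CPM from 62, 35 and 9 UMIs. Hilpda, a lipid droplet protein, had 518 CPM in Cd226-/- treated, 955 in WT treated and 164 in naive core neutrophils. Slc2a1 and Slc2a3, glucose transporters, had 356, 324 and 134 CPM and 322, 255 and 138 CPM. Hif1a, the oxygen-regulated transcription factor itself, was on the other side with 239, 231 and 358 CPM. Of 14 glycolysis genes, 5 and 4 were higher and 0 lower, with Gapdh at 1049.8, 1013 and 682 CPM. Among lipid mediator genes, Ptgs2, the inducible cyclooxygenase, had 5045, 5335 and 2158 CPM, and Ltb4r1, the leukotriene B4 receptor, 290.4, 338 and 119 CPM.

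Genes of the NADPH oxidase and of antioxidants, taken as 1 list, were lower in treated skin more often than higher. Of 17 NADPH oxidase and antioxidant genes, 10 were lower and 1 higher in Cd226-/- treated, and 9 lower and 0 higher in WT treated over naive, with medians of -0.69 and -0.64. Among all genes tested, 33.5% and 33.3% were lower. Ncf1, the p47 subunit of the oxidase, had 72.6, 113 and 323 CPM, and Txn1, thioredoxin, 604, 669 and 1698 CPM. Of 22 pathogen and Fc receptor genes, 8 and 11 were lower and 2 and 2 higher in Cd226-/- and WT treated over naive, a share of lower genes close to that of all genes for Cd226-/- treated. The lower ones included Tlr2 with 236, 251 and 743 CPM and Clec4e, the receptor Mincle, with 1982, 2461 and 3953 CPM. The medians of this list, -0.39 and -0.64, lie near that of all genes, and the first turns to 0.07 under median-of-ratios scaling. Cxcr4, the receptor that holds or recalls neutrophils to bone marrow, had 121 CPM in Cd226-/- treated, 93.3 in WT treated and 434 in naive core neutrophils. Of 19 NF-κB and feedback genes, 3 were higher in each treated library, and 11 and 7 lower. Ier3 had 4233, 4635 and 1470.2 CPM, Cd14, a co-receptor for bacterial lipopolysaccharide, 10919.6, 10960.4 and 6149 CPM, and Rel, a subunit of NF-κB, 99.1, 115 and 354 CPM.

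Transcription factor, survival, calcium-binding and tumour-associated lists held genes in both directions. Among all genes tested in core neutrophils, 6.87% and 6.64% were higher and 33.5% and 33.3% lower in Cd226-/- treated and WT treated over naive. The shares of lower genes in the survival and calcium-binding lists were close to those of all genes. Of 15 transcription factors, 1 and 3 were higher and 4 and 4 lower in Cd226-/- treated and WT treated over naive, with Klf2, a factor of quiescent leukocytes, at 575, 359.8 and 955 CPM, and Cebpb, a C/EBP factor of granulocytes, at 6629.6, 7820.0 and 7471 CPM. Of 18 survival and death genes, 0 and 1 were higher and 7 and 6 lower. Mcl1, on which neutrophil survival depends, was close to equal at 3893, 4142 and 3432 CPM, and Txnip, a thioredoxin inhibitor, was lower at 103, 57.7 and 302 CPM. Of 15 S100 and other calcium-binding or cytosolic genes that the rule did not use, 1 and 2 were higher and 5 and 5 lower, among them Anxa3, an annexin of granules, with 68.4, 91.1 and 23.5 CPM and Tmsb4x, which binds actin, with 4857, 4289 and 11027 CPM. A list of genes known from tumour-associated neutrophils had 6 of 21 higher and 4 lower in each treated library; Siglecf, which marks such cells in mouse tumours, had 1.40, 6.66 and 11.4 CPM, and Cd274, the checkpoint ligand PD-L1, 343, 438 and 454 CPM. The WT median of the transcription factors, -0.20, becomes 0.01 under TMM scaling, and the Cd226-/- median of the tumour-associated genes, -0.30, becomes 0.02.

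Granule and maturation lists held genes in both directions in treated over naive skin. Of 17 late maturation genes, 4 were higher and 5 lower in Cd226-/- treated, and 1 higher and 6 lower in WT treated over naive. Their medians of 0.26 and -0.17 differ in sign, but both lie above the -0.45 of all genes tested. The WT value is 0.03 under TMM scaling. Over all members the medians were -0.25 and -0.49, both below the all-gene medians of 0.21 and 0.08. Retnlg, a resistin-like protein of mature mouse neutrophils, had 4597 CPM in Cd226-/- treated, 1568 in WT treated and 1522 in naive core neutrophils. Its ratio to naive was 3.02 (2.85 to 3.20) in Cd226-/- treated and 1.03 (0.943 to 1.12) in WT treated cells. Ngp, a granule protein made in the bone marrow, had 288, 147 and 24.4 CPM from 206, 66 and 30 UMIs, with 47, 33 and 8 of them in 1 cell each. Of 8 specific granule genes, 4 were higher and 2 lower in Cd226-/- treated and 3 higher and 4 lower in WT treated over naive. Their medians of 0.18 and -0.24 also lie above that of all genes, and over all members they were 0.36 and 0.21. Cyba and Cybb, subunits of the oxidase that sit in granule membranes, were lower in both, with ratios of 0.619 and 0.428 for Cyba and of 0.475 and 0.396 for Cybb, and Hp and Chil1 were lower in WT treated cells. Ngp, Cd177 and Olfm4 were higher in both and Lcn2 in Cd226-/- treated cells. Lcn2, lipocalin 2, had 2733, 2123 and 1763 CPM, and Cd177, a neutrophil surface glycoprotein, 145, 111 and 37.3 CPM. Mxd1, a Myc antagonist, was lower in treated skin at 2130.3, 2494 and 4602 CPM. Olfm4, a specific granule protein, had 389, 411 and 178 CPM, and Adam8, a metalloproteinase of granules, 921, 771 and 417 CPM. Genes of early precursors were close to absent: Elane, Ctsg, Ms4a3, Fcnb and Itgb2l had no UMI in core neutrophils of these 3 libraries and Mpo had 1, in Cd226-/- treated skin. Lyz2, lysozyme, had 369.9, 189 and 1182 CPM, a gene that monocytes and macrophages express far more.

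Between the treated libraries, neutrophils differed in few genes. For Cd226-/- over WT, 344 of 6728 genes were higher (5.11%) and 275 lower (4.09%) over all members by the same limits. In core neutrophils, 92 of 2197 were higher (4.19%) and 101 lower (4.6%), with a median of -0.01 (log2). Keeping the 12 Cd226-/- and 13 WT treated cells with at most 4 monocyte UMIs and a higher ribosomal share gives 153 higher and 630 lower. TMM scaling gives 138 higher and 72 lower in core neutrophils. No list had more than 4 genes past the limit in either direction. Among lists of other than cell type markers with 5 or more genes tested, the medians farthest from 0 were 0.38 for 8 specific granule genes, -0.29 for 12 MHC class I genes and -0.26 for 17 type I interferon genes. The specific granule, gelatinase granule and late maturation medians of 0.38, 0.25 and 0.24 stayed above 0 under TMM scaling.

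**Figure D3:**
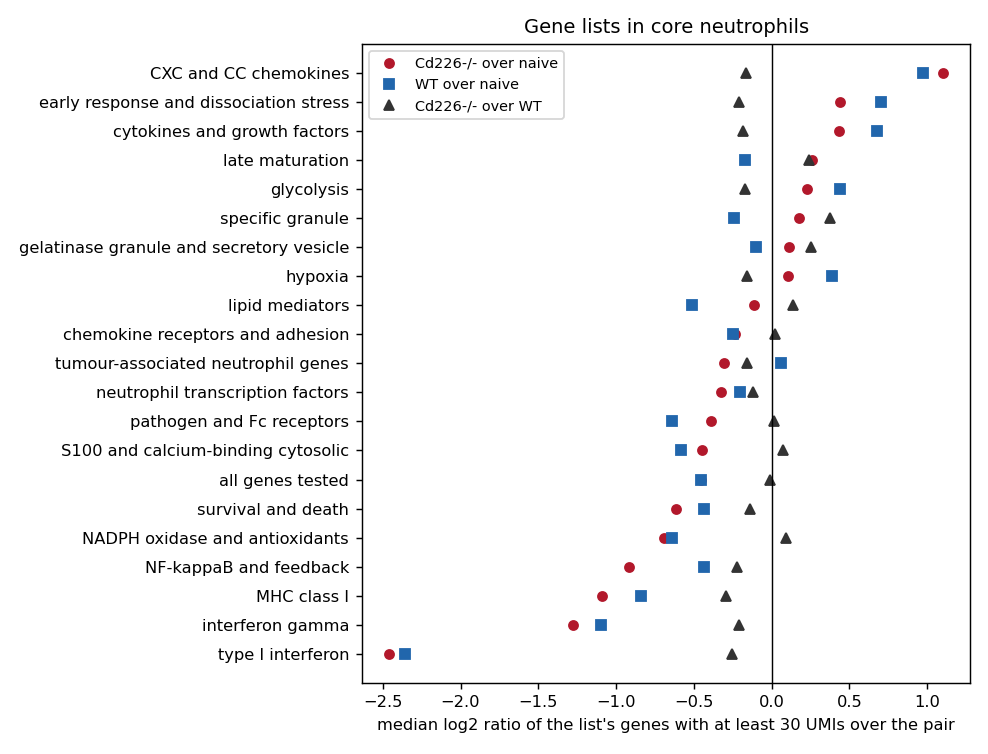
Median log2 ratio in core neutrophils of each gene list other than cell type markers that had at least 5 genes with 30 UMIs or more in every pair, taken over those genes, for Cd226-/- treated over naive (red circles), WT treated over naive (blue squares) and Cd226-/- over WT treated (black triangles). The row for all genes tested stands at -0.45 for both comparisons with naive; of the lists drawn, chemokines lie farthest to the right and type I interferon genes farthest to the left, while the triangles stay between -0.29 and 0.38.

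Retnlg led the genes that were higher in Cd226-/- neutrophils. It had 4597 CPM in Cd226-/- and 1568 CPM in WT treated core neutrophils, from 3293 and 706 UMIs, a ratio of 2.93 (2.70 to 3.18). The share of cells with a UMI, thinned to 1000, differed less: 45.8% (38.7 to 53.0) of Cd226-/- and 39.2% (30.6 to 48.5) of WT treated cells, with 56.3% and 56.1% unthinned and at most 0.0723% in fibroblasts after thinning. The difference lay in the upper end, where the upper quartile of UMIs per cell was 19 in Cd226-/- and 6 in WT treated skin and the highest cell had 188 and 78. Mmp8, the neutrophil collagenase, had 614 and 275 CPM, a ratio of 2.23 (1.82 to 2.74). Monocytes of these libraries had 307 and 312 CPM of Mmp8 but at most 0.898 CPM of Retnlg.

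Ly6g, the surface antigen that marks mouse neutrophils, had 68.4 CPM in Cd226-/- and 17.8 CPM in WT treated core neutrophils, from 49 and 8 UMIs, and 76.3 CPM in naive ones. Its ratio was 3.85 (1.81 to 9.41). Ngp had a ratio of 1.96 (1.48 to 2.63), and its log2 ratio of 0.97 becomes 1.58 once each library's richest cell is left out. Stfa3, one of a family of near-identical stefin A genes, had 39 and 8 UMIs, of which 9 and 5 lay in 1 cell each. Other genes that the rule named were Cxcl10, with 28 against 2 UMIs, Dennd1c, Agtpbp1, Atp6ap1, a subunit of the proton pump of lysosomes, Fam129a and Os9. Dennd1c to Os9 each had between 33 and 58 UMIs in Cd226-/- and between 5 and 12 in WT treated cells. Lcn2, Hp and Wfdc21, granule and secreted proteins, leaned the same way with ratios of 1.29, 1.40 and 1.43, all under 1.5.

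Genes lower in Cd226-/- neutrophils were led by Rsad2 and Hilpda. Rsad2 had 371 CPM in Cd226-/- and 713 CPM in WT treated cells, a ratio of 0.521 (0.441 to 0.615), with 25 and 66 UMIs in the richest cell. Its log2 ratio of -0.94 becomes -0.76 without the richest cells, -0.51 with the relaxed cell filter and -0.36 among cells with no UMI of Ly6c2, Ccr2 or Csf1r. The relaxed filter keeps cells from 200 genes, 500 UMIs and up to 20% mitochondrial UMIs. Hilpda had 518 and 955 CPM, a ratio of 0.542 (0.471 to 0.625), and a UMI in 20.9% (15.5 to 27.3) and 33.1% (24.9 to 42.2) of thinned cells, beside 2.79% and 2.56% of fibroblasts. Basp1, a membrane-associated signalling protein, had 1457 and 2492 CPM, a ratio of 0.585 (0.537 to 0.637). Fibroblasts had Basp1 in 13.4% and 9.66% of thinned cells, against 55.6% and 76.4% of core neutrophils.

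Regulators of transcription and adhesion were also among the lower genes. Atf3, a stress-induced transcription factor, had 339 CPM in Cd226-/- and 631 CPM in WT treated cells, and Maff, a small Maf factor, had 199.6 and 339.8 CPM. At 1000 UMIs per cell, Atf3 had a UMI in 22.0% and 30.9% of core neutrophils and in 22.3% and 27.5% of fibroblasts, so these shares do not set neutrophils apart from other cells. Icam1, an integrin ligand, had 218 and 379.8 CPM, a ratio of 0.573 (0.459 to 0.717). Clec4n, the fungal receptor Dectin-2, and Gpr84, a receptor for medium-chain fatty acids, had ratios of 0.486 (0.339 to 0.694) and 0.451 (0.267 to 0.752). Cks2, Sec61g, Psd4 and Cope completed the 12 named, from 115, 64, 11 and 17 UMIs in Cd226-/- and 141, 83, 21 and 27 in WT treated cells. Of 19 NF-κB and feedback genes, 4 were lower and 0 higher, among them Relb with 36.3 and 80.0 CPM and Nfkb2 with 43.3 and 88.8 CPM. Fibroblast markers were lower as well, 4 of 5 past the limit with a median of -0.76, and their part in these differences was not tested.

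**Figure D4:**
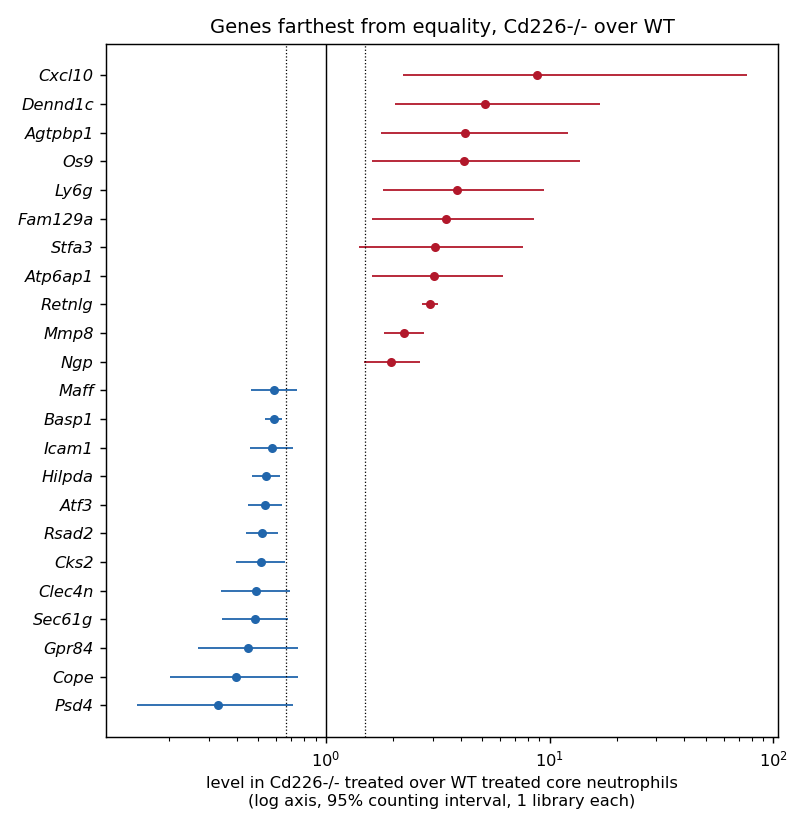
Ratio of the level in Cd226-/- treated over WT treated core neutrophils, on a log axis with 95% counting intervals, for named genes farthest above (red) and farthest below 1 (blue) by the interval bound nearest to 1. Dotted lines mark 1.5-fold each way; Retnlg, Mmp8 and Basp1 have narrow intervals, while that of Cxcl10, with 2 WT UMIs, spans 2.22 to 76.2.

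Within a library, neutrophils varied widely in interferon and chemokine RNA. Over 8 genes chosen after their values were seen (Rsad2, Isg15, Ifit1, Ifit2, Ifit3, Ifit3b, Irf7 and Oasl1), 10 or more of 1000 thinned UMIs were present in 17 of 197 Cd226-/- treated (8.63%, 5.11 to 13.5), 14 of 123 WT treated (11.4%, 6.36 to 18.4) and 152 of 401 naive core neutrophils (37.9%, 33.1 to 42.9). Near the limit, 5 to 9 UMIs were present in 24, 16 and 60 cells. This is a range of a continuous score, not a cell type. Of 1000 UMIs, 200 or more came from Cxcl2, Cxcl3, Ccl3 and Ccl4 in 25.4% of Cd226-/- treated, 23.6% of WT treated and 2.74% of naive core neutrophils, and fewer than 50 in 8.63%, 4.88% and 60.1%.

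Chemokine RNA was more common in treated than in naive core neutrophils, with or without interferon RNA. At least 100 of 1000 UMIs were of the 4 chemokine genes in 140 of 197 Cd226-/- treated (71.1%), 95 of 123 WT treated (77.2%) and 64 of 401 naive core neutrophils (16.0%). Of the 17 interferon-rich Cd226-/- treated cells, 16 had at least 100 chemokine UMIs, and of the 14 WT treated cells 12 did. Of the 152 interferon-rich naive cells, 38 had at least 100 and 114 fewer. As shares of all core neutrophils, cells high in both were 8.12%, 9.76% and 9.48% in Cd226-/- treated, WT treated and naive skin. Interferon-rich cells with fewer than 100 chemokine UMIs were thus 28.4% of naive core neutrophils, while there was 1 in Cd226-/- treated and 2 in WT treated skin.

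**Figure D5:**
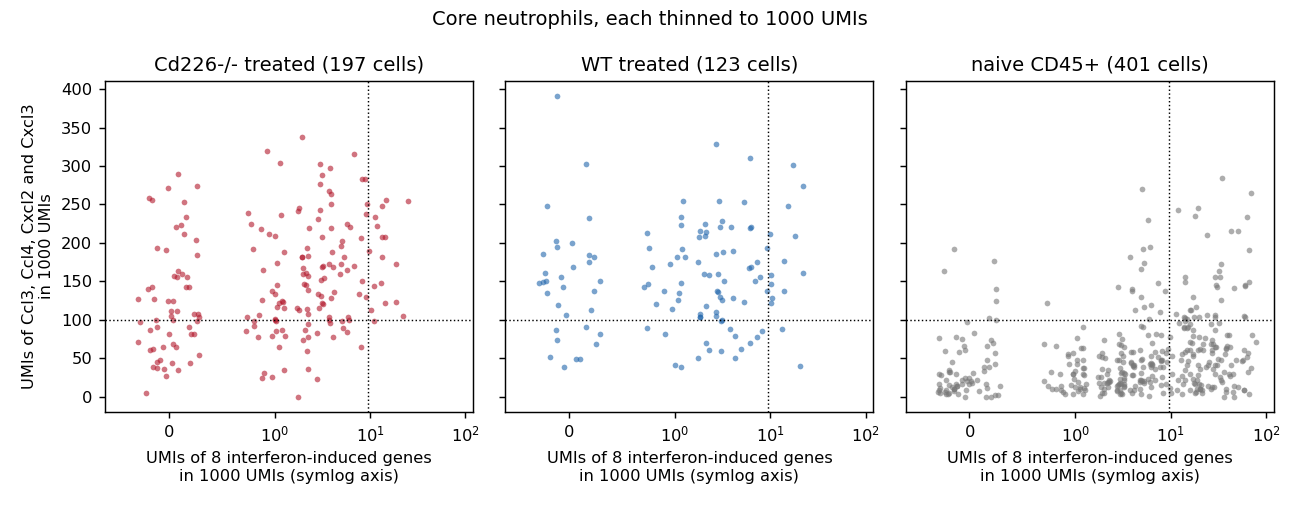
Each point is 1 core neutrophil thinned to 1000 UMIs, by its UMIs of the 8 interferon-induced genes (symmetric log axis, points jittered) and of Cxcl2, Cxcl3, Ccl3 and Ccl4. Panels are Cd226-/- treated (197 cells), WT treated (123) and naive CD45+ (401); right of the dotted line at 10 UMIs lie 17, 14 and 152 cells, and naive cells gather below 100 chemokine UMIs.

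Summed over lists, maturation RNA ran against chemokine RNA from cell to cell. Over the cells of 1 library at 1000 UMIs, Spearman's coefficient between the late maturation and chemokine lists was -0.49 over 197 Cd226-/- treated, -0.53 over 123 WT treated and -0.48 over 401 naive cells. For Retnlg alone, the coefficient was -0.46, -0.05 and -0.28 with Ccl3 and -0.38, -0.04 and -0.27 with Cxcl2 in the same order. This single gene thus showed little of the pattern in WT treated cells. Late maturation and specific granule lists ran together, at 0.47, 0.48 and 0.24. Type I interferon and MHC class I lists had 0.35, 0.35 and 0.64. Both lists of a pair come from the same thinned total, so a high value of one leaves fewer UMIs for the other, and cells of 1 library are not replicates. The median share of a cell's UMIs in the late maturation list was 2.16% in Cd226-/- treated, 1.88% in WT treated and 2.66% in naive skin, and ranged from 0.429% to 7.70%, 0.266% to 5.57% and 0.456% to 9.34%.

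Single genes showed how uneven these levels were. Retnlg had a median of 1 UMI per cell in Cd226-/- treated, 1 in WT treated and 0 in naive core neutrophils and a maximum of 188, 78 and 182. The 10% of cells with most Retnlg held 57.0%, 56.1% and 79.5% of its UMIs. For Rsad2 the top 10% held 81.2% in Cd226-/- treated, 80.1% in WT treated and 56.3% in naive skin, so its UMIs were spread over more cells in naive skin. Cxcl2 was spread evenly by comparison, with 24.3%, 23.8% and 34.5%. Within libraries, Retnlg and Mmp8 went together with Spearman's coefficients of 0.60, 0.49 and 0.26.

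With the mixed cells included, most genes farthest apart were of another kind, except those lower in treated over naive skin. By the same rule over all members, 1 of the 12 genes higher and 0 of the 12 lower in Cd226-/- over WT were among the 12 named in core neutrophils, and for treated over naive 2 of 12 higher and 8 of 12 lower. Genes lower in treated over naive skin were led by Cxcl10 and Ifit3, over all members as in core neutrophils. The other all-member lists held many genes of pigment and other skin cells, some of which sat in few cells. Dct, a pigment cell enzyme, had 558 UMIs in Cd226-/- treated, 1627 in WT treated and 0 in naive members, with 378 and 514 of them in 1 cell each. Coch had 158, 2 and 0 UMIs, 155 of them in 1 Cd226-/- treated cell. Tyrp1 and Tyr, further pigment genes, had 171 and 37 UMIs in Cd226-/- treated against 713 and 142 in WT treated members. Saa3, a serum amyloid gene spread over more cells, had 1742, 547 and 220 UMIs, at most 140 in 1 cell. The type I interferon list over all members had 0 of 27 genes higher and 27 lower (median -2.70) for Cd226-/- treated and 0 of 27 genes higher and 27 lower (median -2.35) for WT treated over naive, and 0 of 21 genes higher and 8 lower (median -0.52) for Cd226-/- over WT. The chemokine list had 6 of 13 genes higher and 4 lower (median 0.51) and 5 of 13 genes higher and 5 lower (median 0.13) over naive, with all-gene medians of 0.21 and 0.08. Over all members the Cd226-/- over WT ratio was 2.01 (1.88 to 2.14) for Retnlg, 0.351 (0.304 to 0.405) for Rsad2 and 1.45 (1.31 to 1.61) for Mmp8. The Cxcl3 ratio to naive was 5.97 (5.60 to 6.38) in Cd226-/- treated and 7.89 (7.39 to 8.44) in WT treated members, so these genes kept their side of 1 with the mixed cells included.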

How the data were processed

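The deposited files hold UMI counts per gene and cell, with 2 antibody tags. The submitters' processing notes name Cell Ranger and the mm10 build, and the version, 3.1.0, also stands in the file headers. Of 34306 deposited barcodes, 28607 passed the cell filter given above. Counts were summed over neutrophils of each library and scaled to CPM by total gene UMIs. With 1 library per group no p-value was computed. Ratios have exact conditional binomial intervals, shares exact binomial (Clopper-Pearson) and levels exact Poisson intervals, all at 95% and for counting error only. The calculation was tested on simulated data.

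The members, gene lists and rules were chosen with earlier results of these data known. The core set was chosen after its values were seen. For Cd226-/- over WT the text names the 12 highest and 12 lowest genes by the interval bound nearest to 1, with at least 30 UMIs over the pair, past 1.5-fold under total and TMM scaling and, where higher, at a level of at least 0.2 of the highest in the other cell classes. That rule passes over the genes that chose the members, Gm and Rik models, antigen receptor segments, and genes of mitochondria, ribosomes, hemoglobin or the sex chromosomes (Xist and Y). For treated over naive a gene had to pass in both treated libraries. Up to 6 examples per list were also given. A few genes are not reported here. Siglecf, the absent precursor genes and the 8 interferon genes were chosen after their values were seen. The promoter motifs are 9-letter forms, set after longer forms had been run. The listed symbols Il36g, Mx2 and Clec7a were not analysed here.

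Doublets were called with Scrublet in scanpy 1.11.5 but left in. It marked 161 cells in Cd226-/- treated, 170 in WT treated, 602 in naive CD45- and 9 in naive CD45+ skin; the last, 0.256% of 3513 cells, is too few to count as a working call. Monocytes had at least 3 UMIs of Ly6c2 and Ccr2, at least 20 of Lyz2 and 0 of Csf3r, Cxcr2 and the Cd3 genes, which limits comparisons of neutrophils with them to other genes. T cells had at least 2 Cd3 UMIs and at most 5 of Lyz2. Fibroblasts had at least 5% of UMIs in the collagen genes and Dcn and none of Ptprc. TMM factors came from edgeR 4.0.16 in R 4.3.3. Alternatives were TMM and median-of-ratios scaling, other filters on cells and on low counts, other member rules, doublets left out and the richest cell left out. Plots came from matplotlib 3.10.9, and the remaining steps from scipy 1.17.1, pandas 2.3.3 and numpy 2.4.6 under Python 3.11.15.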

Additional observations from a re-analysis of the deposited data

Results flagged for a closer look

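In core neutrophils, Atf3 and Cks2 lay on opposite sides of naive skin in the treated libraries, each side with an interval that excludes equality. The log2 ratio of Atf3, a stress-induced transcription factor, was -0.57 for Cd226-/- treated over naive and 0.33 for WT treated over naive. The log2 ratio of Cks2, a subunit that binds cyclin-dependent kinases, was -0.44 for Cd226-/- treated over naive and 0.53 for WT treated over naive. The median of all genes tested was -0.45 in both comparisons, so the Cd226-/- values lie close to that of the typical gene. Under TMM scaling the Cd226-/- values were -0.25 for Atf3 and -0.12 for Cks2, and under median-of-ratios scaling Cks2 was at 0.016, on the same side as WT treated cells. Over all members Atf3 was at -0.028 in Cd226-/- treated and -0.041 in WT treated over naive. Both ratios of each gene use the same naive library, and with 1 library per group the difference was not tested.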

How the results depend on the processing

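No paired analysis was possible because each group is 1 library. Over all members, genes higher in Cd226-/- over WT numbered 101 without cells holding a UMI of Ly6c2, Ccr2 or Csf1r and 92 in core neutrophils, against 344. Lower ones numbered 477 with at least 10 UMIs, 586 with no filter on low counts and 101 in core neutrophils, against 275. For Cd226-/- treated over naive, genes higher numbered 672 with TMM scaling, 730 with median-of-ratios scaling, 883 with the stricter member rule, 484 without monocyte transcripts and 222 in core neutrophils, against 1328; 1254 were lower with TMM scaling, against 794. For WT treated over naive, genes higher numbered 610 with TMM scaling, 1453 with at least 10 UMIs, 1838 with no filter, 634 without monocyte transcripts and 204 in core neutrophils, against 960. In core neutrophils, genes higher in Cd226-/- over WT numbered 140 with no filter, 153 with any ribosomal share and 344 over all members, against 92. Lower ones numbered 169 with at least 10 UMIs, 217 with no filter, 630 with any ribosomal share and 275 over all members, against 101. For Cd226-/- treated over naive the core counts of higher genes were 402 with TMM, 520 with median-of-ratios scaling, 359 with no filter, 603 with any ribosomal share and 1328 over all members, against 222. The lower ones were 623 with TMM and 467 with median-of-ratios scaling, against 1083. For WT treated over naive they were 487 higher and 454 lower with median-of-ratios scaling, against 204 and 1023, and 394 higher with no filter, 979 with any ribosomal share and 960 over all members. The number of members was 214 in Cd226-/- treated skin under the stricter rule. Without monocyte transcripts it was 172 in Cd226-/- treated, 111 in WT treated and 268 in naive skin, and in the core set 197 and 123 in the treated libraries. Of 3248 recomputed single-gene ratios, 11 that had been past 1.5-fold changed sign. Without the richest cell, Coch became -0.71 (Cd226-/- over WT) and -0.042 (Cd226-/- treated over naive), on the log2 scale. Dct became -0.80 for Cd226-/- treated over naive in core neutrophils. These Coch and Dct values rest on at most 3 UMIs in each library, so the setting of a count of 0 to 3 UMIs decides their sign. Il23a became -0.75 for Cd226-/- over WT under the stricter rule. With all members in place of core ones, Atf3 became 0.014, Lyz2 -0.020, Sec61g 0.020 and Txnip -0.25 for Cd226-/- over WT. Lyz2 became 0.44 and Upp1 -0.024 for Cd226-/- treated over naive, and Lyz2 0.46 for WT treated over naive. The cause of these changes was not tested. A further 658 moved outside their counting interval without such a change of sign. Of 660 list medians 119 moved, and of 96 shares of cells 61 moved. Depth limits genes below about 30 UMIs over a pair, and with 1 library per group no spread between animals is known.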

Other observations

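Naive core neutrophils with many interferon UMIs also differed in maturation RNA. The 152 naive cells with 10 or more of 1000 thinned UMIs from the 8 interferon genes were set beside those with fewer than 5, as a description of cells split by that score. Retnlg stood at 283 CPM in the interferon-rich cells and 3018 CPM in the others. Mmp8, the neutrophil collagenase, had 75.3 and 380.2 CPM, Wfdc21 466 and 1619 CPM, and Lcn2 1285 and 2159 CPM. Genes of interferon response outside the 8 were higher in the interferon-rich cells: Cxcl10 had 3059 and 16.4 CPM, Gbp2 852 and 83.7 CPM, Ly6e 1879 and 229 CPM, and Slfn4 4642 and 1062 CPM. Ccl3 had 9684 and 3698 CPM, Cxcl2 49194 and 28143 CPM, and B2m 3745 and 1495 CPM. Cxcl3 was close to equal, at 699.7 and 745.8 CPM. All cells come from 1 library that pools both genotypes, so no test was possible and genotype cannot be told apart from the split.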
